A study of Homo sapiens with 14 samples.

Results

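A549 cells treated with PF-06873600, a small-molecule inhibitor of CDK2, CDK4 and CDK6, were compared with untreated A549 cells across all genes. The comparison used 4 of the 14 RNA-seq libraries of the series, chosen by their sample labels: 2 from cells given 0.5 μM of the compound for 7 days and 2 from untreated cells. A549 is an established line of human lung adenocarcinoma cells. The study asked how cancer cells can be driven into senescence, a lasting arrest of the cell cycle, when CDK4/6 inhibition alone does not suffice. Besides these libraries it sequenced A549 cells treated with palbociclib (a CDK4/6 inhibitor), indisulam or both, and SUM159 cells, a breast cancer line, without treatment and with the same dose and time of PF-06873600.

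The series describes its duplicates as technical, so p-values here measure only the spread between these libraries. The time at which the untreated cells were collected is not given in the sources used here. Both groups came from the same unmodified line, and no vehicle is named for the untreated cells. The libraries were made from polyadenylated RNA with a strand-specific kit and read from 1 end. Whether counting used the strand is not stated in the sources used here, so reads of a gene and of an overlapping gene on the opposite strand may not have been told apart. Among the genes described below, some such pairs with a named partner are CDKN1A (DINOL), CCND2 (CCND2-AS1), CCNH (RASA1), FANCC (AOPEP), FANCF (GAS2), KRT7 (KRT7-AS), THY1 (THY1-AS1), NECTIN4 (NECTIN4-AS1), RAB37 (CD300LF), CDK2 (PMEL), CDK4 (TSPAN31), CDK6 (CDK6-AS1), CCND1 (LTO1), CCNA2 (EXOSC9), CDKN1B (GPR19), RBL2 (AKTIP), MDM2 (CPM), RRM1 (RRM1-AS1), HMMR (HMMR-AS1), IGFBP7 (POLR2B), LAMB1 (DLD), TNC (DELEC1), TAP1 (PSMB9), NPC1 (RMC1), RPL10 (DNASE1L1) and IGSF10 (MED12L). Others are named with their partner, and further genes overlap pseudogenes or unnamed transcripts.

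The untreated libraries held 14712412 and 15000694 reads counted on genes, and the treated libraries 13060374 and 16173663. Levels are given as CPM, the count of a gene scaled to the total over all genes of that library. A floor of 3 counts corresponds to 0.185 to 0.230 CPM and covers counting error only. The untreated duplicates stood further apart than the treated ones: the median absolute log2 difference between duplicates was 0.138 without treatment and 0.0553 with it. Keratins of epithelial cells were abundant in all 4 libraries, KRT8 at 1908 CPM or more, whereas the lung lineage regulator NKX2-1 had 1 to 3 counts and the surfactant gene SFTPB had 0. The immune markers CD3E, CD3D and MS4A1 and the endothelial markers TIE1, CLDN5 and EMCN had 0 counts in all 4 libraries. Other such markers had reads: CD14 had 61 to 111 counts, ITGAM 14 to 43 and PECAM1, an endothelial marker, 4 to 24. In bulk RNA, fewer cells of a kind and less RNA per cell cannot be told apart.

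Cyclin-dependent kinases drive the cell cycle with their cyclin partners. CDK4 and CDK6 with D-type cyclins, then CDK2 with E-type cyclins, phosphorylate the retinoblastoma protein, which otherwise holds E2F transcription factors in check. E2F factors switch on genes for DNA replication. Genes for mitosis are switched on later, in G2, through promoter elements bound by the MuvB complex with B-MYB and FOXM1. The tumor suppressor p53 induces the CDK inhibitor p21, the product of CDKN1A.

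Of 15780 genes with enough counts to test, 4491 were called higher with PF-06873600 (28.5%) and 4392 lower (27.8%), at an adjusted p under 0.05. The test was edgeR's quasi-likelihood test with Benjamini-Hochberg adjustment over all genes tested, and every adjusted p below comes from it. The median log2 fold change over all genes was -0.0082 with scaling to total counts. Levels scaled this way are shares of each library, so this median does not measure a change in total RNA per cell. The fitted change was at least 2-fold for 1681 of the genes called higher and 1111 of those called lower. Among the 9950 genes that reached a mean of 10 CPM in either group, 188 were at least 4-fold higher and 67 at least 4-fold lower. Of 1691 long noncoding RNAs, 278 were called higher (16.4%) and 430 lower (25.4%), with a median of -0.21. Of 13272 protein-coding genes, 31.0% were called higher and 28.7% lower, with a median of 0.013.

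**Figure D1:**
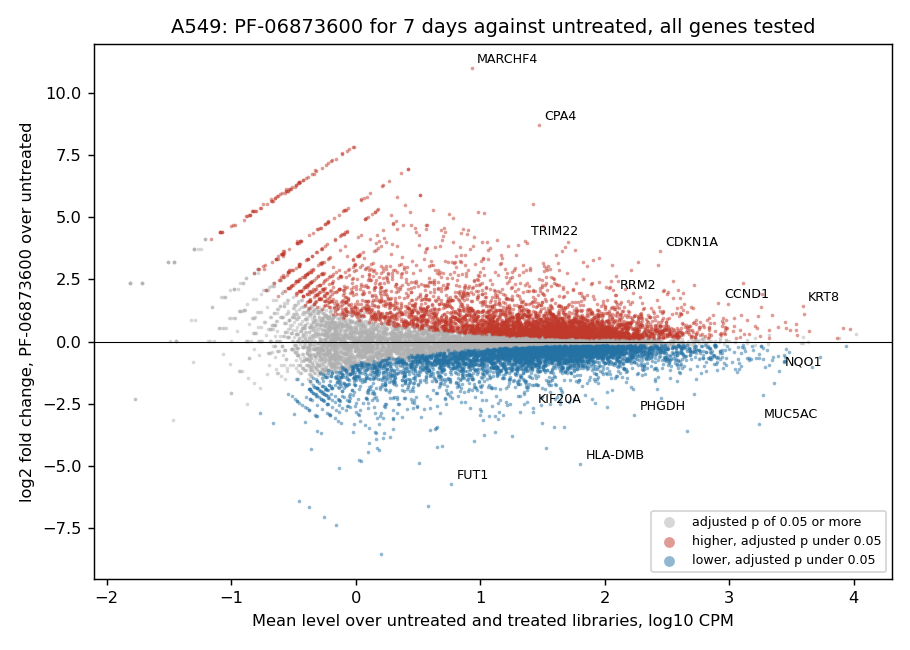
Each point is a gene tested in A549, with its mean level over the 2 groups on the x axis (log10 CPM) and the fitted log2 fold change of treated over untreated cells on the y axis. Red and blue points are called higher and lower, grey points are not called, and the stripes at the left are genes with very few counts. The 6 genes tested with 0 counts in all 4 libraries are not drawn.

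The CDKs that the compound inhibits and their cyclins were mostly higher in treated cells. CCNE1, which encodes cyclin E1, the partner of CDK2, was at 10.3 and 11.3 CPM without treatment and at 52.1 and 52.3 CPM with it. CCNE2, encoding cyclin E2, went from 2.38 and 2.67 CPM to 19.1 and 16.0 CPM. The treated libraries lay above the untreated ones for both genes, with log2 fold changes of 2.27 (SE 0.09, adjusted p = 4.71e-11) and 2.79 (SE 0.20, adjusted p = 2.95e-08). CCNE2 overlaps INTS8 and NDUFAF6 on the other strand.

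CCND1, encoding cyclin D1, was at 429 and 406 CPM in untreated cells and at 1204 and 1235 CPM in treated cells, a log2 fold change of 1.55 (SE 0.05, adjusted p = 1.48e-11). CCND3, encoding cyclin D3, rose by 0.89 on the log2 scale (SE 0.05, adjusted p = 5.21e-09). CCND2 had 0 counts in both untreated libraries and 1.46 and 1.30 CPM in treated ones, at least 6.82-fold higher against a floor of 3 counts per library. Of the kinases, CDK2 rose from 25.9 and 23.8 CPM to 52.5 and 50.6 CPM, a log2 fold change of 1.05 (SE 0.08, adjusted p = 4.37e-08). CDK6 rose by 0.83 (SE 0.09, adjusted p = 2.18e-06) and CDK4 by 0.27 (SE 0.06, adjusted p = 0.00152).

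Among 17 CDKs, cyclins and associated factors, 9 were called higher (52.9%, beside 28.5% of all genes). Another 5 were called lower (29.4%, near the 27.8% of all genes). The median log2 fold change was 0.27. The lower calls ran from a log2 fold change of -0.29 for CCNH, encoding cyclin H of the CDK-activating kinase, to -0.55 for MNAT1, another of its subunits. CCNH had an adjusted p of 0.09 without untreated library 2 and of 0.133 without treated library 2. Without untreated library 2, 2 genes were called lower, and when either treated library was left out, 3 were. CCNA2, encoding cyclin A2, had a log2 fold change of -0.33 (adjusted p = 0.0126), and of -0.21 without untreated library 2 (adjusted p = 0.109), -0.35 without treated library 1 (0.0522) and -0.32 without treated library 2 (0.0775).

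The CDK inhibitors moved in opposite directions. CDKN1A on chromosome 6 (36676460 to 36687337, GRCh38) was at 39.2 and 43.7 CPM in untreated cells and at 504 and 523 CPM in treated cells, a log2 fold change of 3.63 (SE 0.07, adjusted p = 1.16e-13). In contrast, CDKN2C, which encodes the CDK4/6 inhibitor p18, fell from 61.5 and 70.3 CPM to 14.4 and 12.4 CPM, a log2 fold change of -2.31 (SE 0.11, adjusted p = 3.37e-10). CDKN1B, encoding p27, fell from 63.4 and 59.2 CPM to 18.9 and 18.3 CPM, a log2 fold change of -1.72 (SE 0.09, adjusted p = 5.30e-10). CDKN2A and CDKN2B, encoding p16, ARF and p15, had 0 counts in all 4 libraries and could not be tested. The study describes A549 cells as p16 null. CDKN1C and CDKN2D were not called.

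**Figure D2:**
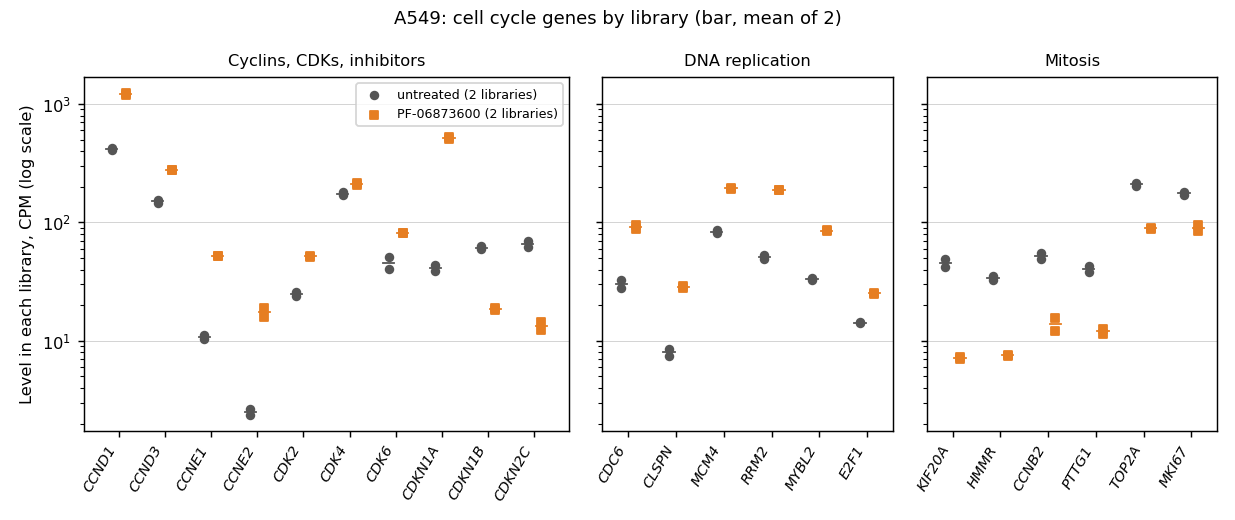
The level of 22 cell cycle genes is shown in each library (CPM, log axis), with grey circles for the 2 untreated and orange squares for the 2 treated libraries and a bar at each mean. Duplicates of a group lie closer together than the groups do, and the DNA replication genes go up while the mitosis genes go down.

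Genes of DNA replication rose together. Of 42 genes for origin licensing, the replication fork and DNA polymerases, all tested, 36 were called higher and 1 lower, beside 28.5% and 27.8% of all genes, the shares against which every list below stands. Their median log2 fold change was 0.76. Only RPA3, a subunit of the protein that coats single-stranded DNA, was called lower, at -0.49, and it overlaps UMAD1 on the other strand. RFC1, RFC4, PRIM1, MCM7 and POLE2 were not called.

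CDC6, which loads the replicative helicase at origins, was at 27.9 and 32.8 CPM in untreated cells and at 88.7 and 95.0 CPM in treated cells, a log2 fold change of 1.60 (SE 0.09, adjusted p = 3.41e-09). CLSPN, encoding the checkpoint mediator claspin, went from 7.41 and 8.53 CPM to 28.9 and 27.8 CPM, a log2 fold change of 1.83 (SE 0.11, adjusted p = 6.47e-09). MCM4, a helicase subunit, went from 85.9 and 81.5 CPM to 192 and 195 CPM, a log2 fold change of 1.21 (SE 0.06, adjusted p = 2.76e-10). In all 3 genes the lowest treated library was more than 2 times the highest untreated one.

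Among 20 genes for nucleotide synthesis, 12 were called higher and 2 lower, with a median of 0.36. RRM2, the small subunit of ribonucleotide reductase, which makes deoxynucleotides, rose from 49.6 and 53.4 CPM to 190 and 189 CPM, a log2 fold change of 1.88 (SE 0.06, adjusted p = 1.21e-11). Its large subunit RRM1 rose by 0.91 on the log2 scale (SE 0.07, adjusted p = 4.72e-08). TK1, thymidine kinase of the cytosol, was called lower at -0.38, and IMPDH2, which acts in guanine nucleotide synthesis, at -0.43. Of 33 genes for homologous recombination and the Fanconi anemia pathway, 17 were called higher and 3 lower (FANCC, FANCE and FANCF), with a median of 0.38. FANCE had an adjusted p of 0.0516 without untreated library 2 and of 0.101 without treated library 2.

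The regulators that link RB to transcription were less uniform, with 7 of 19 called higher (36.8%, beside 28.5% of all genes) and 3 lower (15.8%, beside 27.8%). Their median was 0.12, and it was 0.053 without untreated library 1 and 0.19 without treated library 1. MYBL2, encoding B-MYB, rose by 1.34 on the log2 scale (34.1 and 32.9 CPM to 83.9 and 86.0 CPM, adjusted p = 8.63e-10). E2F1 rose by 0.82 (SE 0.10, adjusted p = 5.05e-06), and E2F7, a repressing member of the family, by 1.00 (adjusted p = 0.0001). LIN52, a subunit of the MuvB core, was lower, with a log2 fold change of -1.06 (adjusted p = 0.000312), and so was RBL2, encoding p130, at -0.58. FOXM1 was at 103 and 107 CPM without treatment and at 98.8 and 99.8 CPM with it, and it was not called (log2 fold change -0.08, SE 0.07).

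Genes of mitosis fell. Of 52 listed, 51 could be tested, and of these 40 were called lower and 3 higher, with a median log2 fold change of -0.58. KIF20A on chromosome 5 (138178719 to 138187723), a kinesin of the central spindle, was at 42.0 and 49.3 CPM in untreated cells and at 7.27 and 7.05 CPM in treated cells, a log2 fold change of -2.67 (SE 0.12, adjusted p = 1.50e-10). HMMR, a spindle assembly factor, went from 32.7 and 35.2 CPM to 7.50 and 7.54 CPM (log2 fold change -2.17). CCNB2, encoding cyclin B2, went from 49.1 and 54.8 CPM to 12.1 and 15.6 CPM (log2 fold change -1.89). For these genes each treated library was below each untreated library, and KIF20A overlaps BRD8 and CDC23 on the other strand.

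PTTG1 (securin), PLK1 and TOP2A, which act in sister chromatid separation, mitotic progression and DNA untangling, had log2 fold changes of -1.75, -1.24 and -1.23. MKI67, encoding the proliferation marker Ki-67, went from 172 and 181 CPM to 84.5 and 95.8 CPM, a log2 fold change of -0.97 (SE 0.08, adjusted p = 9.00e-08). CDK1, the kinase that drives entry into mitosis, was at 53.2 and 60.9 CPM and at 50.9 and 54.4 CPM, and it was not called. The 3 genes called higher were CENPI, CENPM and SMC2, of which CENPM had an adjusted p of 0.0888 without untreated library 2 and 0.36 without treated library 2. NUSAP1 had 1 to 3 counts in every library and was not tested.

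The promoters of both groups were read from RefSeq (GRCh38.p14), in the 250 bases before each annotated start. They were searched on both strands for TTTGAA, the core of the cell cycle genes homology region, and for the E2F-type letters TTTCCCGC, TTTCGCGC, TTTGCCGC or TTTGGCGC, of which the last can match both strands at overlapping positions. TTTGAA was found for 27 of 44 mitosis genes with a promoter in the table (61.4%) and for 0 of 36 replication genes, beside 16.1% of all 27305 genes there. E2F-type letters were found for 14 of 36 replication genes (38.9%) and 3 of 44 mitosis genes (6.82%), beside 3.40% of all genes there and, of genes tested here, 5.62% of those called lower, 5.14% of those called higher and 5.36% of those not called. The lines below show 2 promoters of each group, without bases that an annotated exon covers, and with the matched letters of either strand in capitals. CCNB2 followed the rule fixed for the choice, and the others were chosen after their values were seen. They lie at chr15:59104896-59105125 (CCNB2, plus strand), chr14:55191609-55191835 (DLGAP5, minus strand), chr15:66356686-66356935 (TIPIN, minus strand) and chr20:5126627-5126872 (PCNA, minus strand).
CCNB2: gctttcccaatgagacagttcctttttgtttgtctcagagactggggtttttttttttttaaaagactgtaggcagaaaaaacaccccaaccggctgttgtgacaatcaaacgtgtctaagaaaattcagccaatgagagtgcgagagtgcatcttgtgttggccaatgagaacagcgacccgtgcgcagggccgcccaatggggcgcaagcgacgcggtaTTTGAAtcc
DLGAP5: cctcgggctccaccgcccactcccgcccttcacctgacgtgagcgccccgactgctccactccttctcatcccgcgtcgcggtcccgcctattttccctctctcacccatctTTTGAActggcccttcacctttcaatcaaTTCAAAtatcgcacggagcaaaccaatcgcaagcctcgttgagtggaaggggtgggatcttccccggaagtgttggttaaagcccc
TIPIN: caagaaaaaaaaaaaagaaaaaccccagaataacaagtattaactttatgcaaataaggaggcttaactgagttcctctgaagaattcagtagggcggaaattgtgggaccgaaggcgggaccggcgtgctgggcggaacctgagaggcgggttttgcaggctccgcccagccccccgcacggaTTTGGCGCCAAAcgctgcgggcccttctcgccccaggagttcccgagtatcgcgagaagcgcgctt
PCNA: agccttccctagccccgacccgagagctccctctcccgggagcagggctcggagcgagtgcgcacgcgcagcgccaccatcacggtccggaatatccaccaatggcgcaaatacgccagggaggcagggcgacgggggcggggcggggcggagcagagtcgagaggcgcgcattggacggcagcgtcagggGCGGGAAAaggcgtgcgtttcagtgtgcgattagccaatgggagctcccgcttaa

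DLGAP5, a spindle assembly factor, went from 31.3 and 37.5 CPM to a mean of 11.2 CPM (log2 fold change -1.62). TIPIN, of the fork protection complex, went from 6.39 and 8.40 CPM to 15.6 and 14.3 CPM (log2 fold change 1.01), and PCNA, the sliding clamp of DNA polymerases, from 117 and 119 CPM to 210 and 216 CPM (log2 fold change 0.86). Mitosis genes with and without TTTGAA both had a median log2 fold change of -0.64, and replication genes had 0.67 with E2F-type letters and 0.78 without. Over all genes, TTTGAA was found for 12.8% of those called lower and 12.2% of those called higher. A match is a description of the letters and not a measured binding site.

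Of 67 replication-dependent histone genes, whose mRNAs mostly lack poly(A) tails and are near-identical copies, 20 had enough reads to test, with 11 called higher and 1 lower and a median of 0.90. With no filter on low counts the median was 0.0, and with a mean of at least 50 counts it was 1.36, with 6 called higher. H1-2, a linker histone, went from 9.86 and 11.7 CPM to 32.7 and 32.5 CPM (log2 fold change 1.59, adjusted p = 2.80e-08). The 1 lower call, H3C6, was lost without untreated library 1 or without treated library 2. Reads of these genes can be split among copies by counting, and their levels are uncertain.

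p53 target genes rose, and 25 of the 35 called higher did so by at least 2-fold. Of 39 listed, all tested, 35 were called higher and 2 lower, with a median log2 fold change of 1.37. MDM2, the ubiquitin ligase that limits p53, went from 119 and 135 CPM to 397 and 406 CPM, a log2 fold change of 1.66 (SE 0.06, adjusted p = 3.08e-11). PLK2, a stress-induced kinase, went from 35.7 and 33.5 CPM to 213 and 210 CPM (log2 fold change 2.62). SPATA18, which acts in mitochondrial quality control, went from 4.28 and 4.27 CPM to a mean of 28.6 CPM (log2 fold change 2.73).

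FAS, a death receptor, went from 6.93 and 8.40 CPM to 59.2 and 61.0 CPM, a log2 fold change of 2.97 (SE 0.11, adjusted p = 2.52e-11). It overlaps ACTA2, a smooth muscle actin gene, on the other strand, which went from 11.7 and 10.7 CPM to 58.1 and 55.3 CPM (log2 fold change 2.34), and their reads cannot be told apart if counting ignored strand. The genes called lower included PMAIP1, a BH3-only gene, at -0.40, and 1 gene was called lower without treated library 2. In the BCL2 family, 8 of 15 tested were called higher and 3 lower. The lower ones were PMAIP1, BCL2L11 (log2 fold change -0.65) and BMF (-2.02, with 5 and 6 counts in treated libraries). BCL2L11 overlaps MIR4435-2HG and BMF overlaps BMF-AS1 on the other strand. The death effector BAX rose by 1.17 on the log2 scale (84.8 and 71.0 CPM to 177 and 173 CPM, adjusted p = 7.02e-09).

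**Figure D3:**
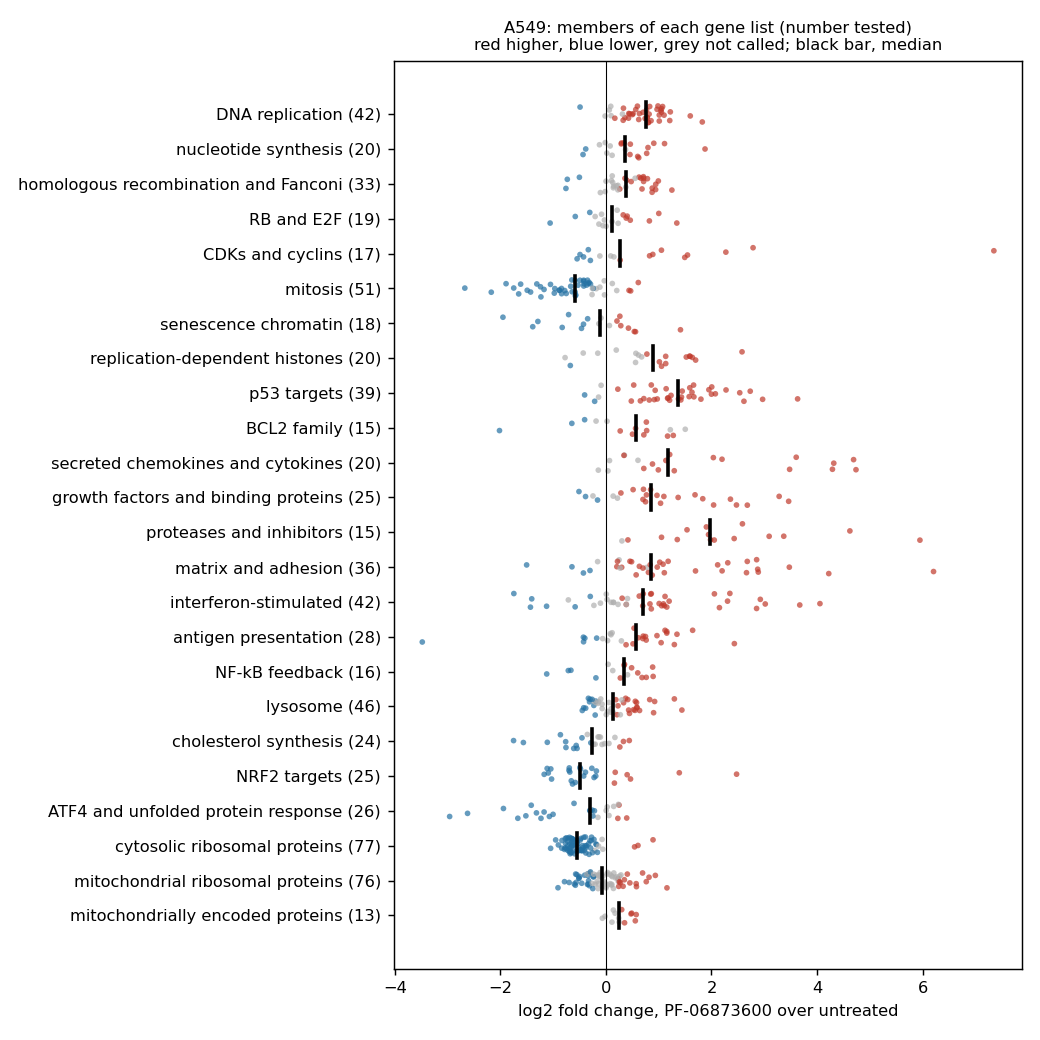
Each point is a gene, placed by its log2 fold change of treated over untreated A549 cells, in 24 gene lists with the number tested in parentheses. Red points are called higher, blue lower and grey not called, and the black bar is the median, which is 1.37 for p53 targets, 0.76 for DNA replication, -0.58 for mitosis and -0.55 for cytosolic ribosomal proteins.

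Many secreted factors were higher in treated cells. Of 30 chemokines and cytokines, 20 could be tested, with 15 called higher, 0 lower (1 without untreated library 1) and a median of 1.17. The filter keeps genes that are high in any A549 group, also where they are silent without treatment. Here and in the lists below, the counts therefore describe the members kept. With no filter the median of these chemokines and cytokines was 0.99. The 10 untested members had hardly any reads, such as CSF3 with 0 counts and CCL20 with 0 or 1. CXCL8, the neutrophil chemokine IL-8, went from 6.32 and 7.00 CPM to 73.1 and 75.7 CPM, a log2 fold change of 3.48 (SE 0.09, adjusted p = 9.51e-13). CCL2, the monocyte chemokine, went from 0.612 and 0.867 CPM to 15.1 and 14.8 CPM (log2 fold change 4.32, adjusted p = 1.50e-10). IL6 had 0.544 and 0.533 CPM without treatment and 6.97 and 6.37 CPM with it (log2 fold change 3.61).

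Among proteases and their inhibitors, 14 of the 15 tested of 20 were called higher and 0 lower, with a median of 1.98. MMP7, the metalloprotease matrilysin, went from 107 and 113 CPM to 589 and 597 CPM (log2 fold change 2.43, adjusted p = 1.12e-12). PLAT, tissue plasminogen activator, had a log2 fold change of 3.37 (adjusted p = 5.09e-09).

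Of 25 growth factors and binding proteins tested, 19 were called higher and 3 lower. TGFB2, a transforming growth factor, went from 24.3 and 26.9 CPM to 138 and 126 CPM (log2 fold change 2.36, adjusted p = 6.45e-12), and it overlaps TGFB2-AS1. IGFBP7 went from 2.79 and 2.07 CPM to 27.1 and 26.5 CPM (log2 fold change 3.46). IGFBP3, by contrast, was at 768 and 822 CPM and at 721 and 704 CPM. Its log2 fold change was -0.16 (adjusted p = 0.0376), and leaving out untreated library 2 gave -0.11 (adjusted p = 0.129), treated library 1 -0.18 (0.101) and treated library 2 -0.14 (0.187).

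Matrix and adhesion genes had 28 of 36 tested called higher and 4 lower, with a median of 0.86. The hemidesmosome collagen COL17A1 had a log2 fold change of 3.48 and the matrix protein tenascin C (TNC) 2.89. ITGA1, an integrin chain, was the lowest at -1.50, and LAMB1, a laminin chain, went from 762 and 746 CPM to 487 and 479 CPM (log2 fold change -0.64).

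Of 42 interferon-stimulated genes tested, 25 were called higher and 6 lower, with a median of 0.70, and 3 were called lower without treated library 1. TRIM22, an antiviral ubiquitin ligase that overlaps TRIM5, went from 2.04 and 3.13 CPM to 45.3 and 41.2 CPM (log2 fold change 4.06, adjusted p = 3.06e-11). GBP1, a guanylate-binding protein, went from 1.77 and 1.60 CPM to 21.2 and 21.9 CPM (log2 fold change 3.67, adjusted p = 3.42e-11). The peptide transporter genes TAP1 and TAP2 rose by 1.12 and 1.30 on the log2 scale. Of 28 antigen presentation genes, 17 were called higher and 5 lower. ULBP1, a ligand of the NKG2D receptor of natural killer cells, was the lowest, at 8.02 and 8.20 CPM and then 0.842 and 0.618 CPM (log2 fold change -3.48, adjusted p = 8.44e-09).

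NF-kB feedback genes had 9 of 16 called higher and 4 lower, with a median of 0.35. When either untreated library was left out, 2 were called lower, and without treated library 1, 1 was. The inhibitor gene NFKBIA was lower, from 66.6 and 63.5 CPM to 40.1 and 39.3 CPM (log2 fold change -0.71, adjusted p = 9.11e-07), whereas BCL3 and TNFAIP2 rose by 0.89 and 0.76.

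**Figure D4:**
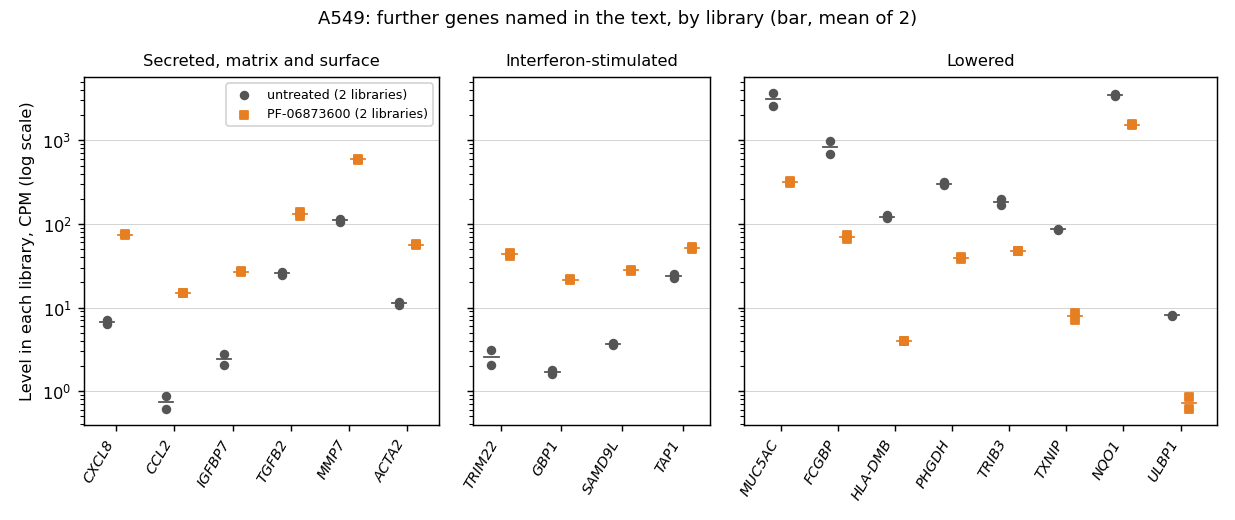
The level of 18 further genes is shown in each library (CPM, log axis), with grey circles for untreated and orange squares for treated libraries and a bar at each mean. CXCL8 lies at 6.32 to 7.00 CPM without treatment and at 73.1 to 75.7 CPM with it, and MUC5AC at 2576 to 3693 CPM and at 312 to 326 CPM.

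Markers of senescence that concern chromatin were split. HMGB2, a chromatin protein, went from 66.8 and 74.3 CPM to 19.1 and 17.5 CPM (log2 fold change -1.95, adjusted p = 5.94e-10). LBR, the lamin B receptor, fell by 1.39 on the log2 scale (adjusted p = 4.17e-10). LMNB1, encoding lamin B1, whose loss is a common senescence marker, went from 48.3 and 47.7 CPM to 36.9 and 32.9 CPM, a log2 fold change of -0.46 (SE 0.08, adjusted p = 0.000297). UHRF1, which maintains DNA methylation in replicating cells, rose by 1.41. In all, 7 of 18 such genes were called higher and 8 lower. GLB1, the lysosomal beta-galactosidase behind the usual senescence stain, was slightly lower, at 184 and 188 CPM and then 159 and 159 CPM (log2 fold change -0.23, adjusted p = 0.00309). The study reported more A549 cells positive for that stain after treatment with the compound. The stain reads enzyme activity, which RNA levels do not measure.

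The study used 5 published senescence lists, described here by their counts over the members that passed the filter. Of 28 members of the SASP list of Hernandez 7 were not tested, and of 42 matched members of the Purcell list 8 were not. With no filter on low counts the medians were 1.31 for that SASP list, 0.895 for the Purcell list and 0.433 for the Casella list. In the SASP list of Hernandez, 19 of 21 genes tested were called higher and 0 lower (median 1.35), and in the senescence list of Hernandez 14 of 31 were higher and 2 lower (median 0.19, or 0.37 without untreated library 1). The Purcell list had 24 of 34 higher and 4 lower (median 0.94) and the Fridman list 40 of 71 higher and 12 lower (median 0.39). In the Casella list 24 of 41 were higher and 7 lower (median 0.45), and 3 were lower when either treated library was left out. JCAD, a cell junction gene, stood highest among the named members of these lists, from 0.476 and 0.667 CPM to 20.5 and 20.9 CPM (log2 fold change 5.16).

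Of 26 genes of the ATF4 and unfolded protein responses, 17 were called lower and 3 higher (SLC7A5, an amino acid transporter, SESN2 and CEBPB), with a median of -0.30, and 5 were called higher without untreated library 1. SESN2 had an adjusted p of 0.181 without untreated library 2, and of 0.096 and 0.133 without treated library 1 and without treated library 2. PHGDH on chromosome 1 (119648411 to 119744218), the first enzyme of serine synthesis, went from 319 and 289 CPM to 40.0 and 38.2 CPM, a log2 fold change of -2.96 (SE 0.07, adjusted p = 4.55e-13). PSAT1, the next enzyme of that pathway, went from 356 and 400 CPM to 133 and 131 CPM (log2 fold change -1.52, adjusted p = 9.92e-11). TRIB3, a pseudokinase induced by ATF4, went from 198 and 168 CPM to 47.5 and 47.7 CPM (log2 fold change -1.94).

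All 25 NRF2 target genes were called, 19 lower and 6 higher, with a median of -0.48, and 3 were called higher without treated library 2. NQO1, a quinone reductase and among the more abundant of them, went from 3356 and 3578 CPM to 1526 and 1555 CPM (log2 fold change -1.17, adjusted p = 2.69e-10). HMOX1, heme oxygenase, rose instead, by 1.39 (adjusted p = 3.27e-08). Of 24 genes of cholesterol synthesis and uptake, 11 were called lower and 3 higher (median -0.26). INSIG1, a sterol-controlled regulator of the pathway, went from 32.7 and 35.1 CPM to 11.3 and 11.6 CPM (log2 fold change -1.56, adjusted p = 5.75e-09).

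Cytosolic ribosomal proteins fell nearly throughout. Of 77 genes, 70 were called lower and 3 higher, with a median of -0.55. RPL10 was at 1171 and 1217 CPM and then at 590 and 565 CPM (log2 fold change -1.05, adjusted p = 3.55e-09). These genes have many near-identical processed copies, and how the counting treated such reads is not stated in the sources used here. The genes called higher included RPS26 and RPL17, at 136 CPM at most. Of 76 mitochondrial ribosomal proteins, 15 were called higher (19.7%, beside 28.5% of all genes, and 9 genes without treated library 2) and 23 lower (30.3%, beside 27.8%). Their median was -0.08, and it was -0.035 without untreated library 2.

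Of 13 proteins encoded in mitochondrial DNA, 6 were called higher and 0 lower, with a median of 0.25, and 3 were higher without treated library 1. Their share of all counts was 4.11% and 3.28% in untreated and 4.71% and 4.18% in treated libraries, so untreated library 1 lay close to treated library 2. Of 46 lysosomal genes, 20 were called higher (43.5%, beside 28.5% of all genes) and 10 lower (21.7%, beside 27.8%). Their median was 0.14, and it was 0.069 without untreated library 2. NPC1, a cholesterol exporter of lysosomes, rose by 1.44 on the log2 scale (23.9 and 22.7 CPM to 63.8 and 62.6 CPM, adjusted p = 6.87e-10).

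The genes with the greatest increase over all genes at 10 CPM or more were of mixed kinds. MARCHF4 on chromosome 2 (216257865 to 216372483), a membrane-bound ubiquitin ligase gene, had 0 counts in both untreated libraries and 18.1 and 16.0 CPM in treated ones, at least 84.4-fold higher against the floor. CPA4, a carboxypeptidase, had 4 and 0 counts without treatment and was at 61.4 and 56.9 CPM with it. TRIML2 went from 1.22 and 1.00 CPM to 55.2 and 49.2 CPM (log2 fold change 5.54, SE 0.15, adjusted p = 1.34e-12). SLAMF7, PI3, KIAA1549L, ACTL8, CLMP, ARSI, NECTIN4 and ANKRD1 had log2 fold changes between 4.06 and 5.18. CCL2, JCAD and TRIM22, described above, were also among them.

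The genes with the greatest decrease were of mixed kinds too. FUT1 on chromosome 19 (48748011 to 48755390), a fucosyltransferase of the H blood group antigen, went from 12.4 and 10.5 CPM to 0.153 and 0.247 CPM (log2 fold change -5.74, SE 0.29, adjusted p = 5.94e-10). HLA-DMB, which helps load peptides on MHC class II, went from 118 and 127 CPM to 3.98 and 4.02 CPM (log2 fold change -4.93, SE 0.10, adjusted p = 2.06e-13). MUC5AC on chromosome 11 (1157953 to 1201138), a gel-forming mucin, went from 3693 and 2576 CPM to 312 and 326 CPM (log2 fold change -3.30, SE 0.14, adjusted p = 7.87e-11). The untreated libraries differed from each other there, but both were well above the treated ones.

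FCGBP, a mucus protein, went from 984 and 695 CPM to 65.3 and 74.8 CPM (log2 fold change -3.58, adjusted p = 2.32e-10). TXNIP, an inhibitor of thioredoxin, went from 85.0 and 87.1 CPM to 7.04 and 8.66 CPM (log2 fold change -3.44). CREB3L1, a transcription factor anchored in the endoplasmic reticulum, had a log2 fold change of -4.27. DOC2B, IGSF10, C9orf152, NCMAP, GPRC6A, RAB37, PLPPR1, SDR16C5 and ERN2 had log2 fold changes between -4.01 and -2.99, and ERN2 overlaps PLK1.

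Epithelial markers did not move as a unit, with 8 of 14 tested of 18 called higher and 3 lower. The median was 0.59, 0.93 without untreated library 1 and 0.28 without untreated library 2. KRT8 went from 2344 and 1908 CPM to 5631 and 5680 CPM (log2 fold change 1.41, adjusted p = 1.28e-09) and KRT7 rose by 1.40. KRT8 overlaps KRT18 on the other strand. EPCAM, an adhesion molecule, was lower (18.3 and 20.6 CPM to 8.35 and 7.73 CPM, log2 fold change -1.28), as was CDH1, encoding E-cadherin (-0.70). Of the 8 fibroblast markers, ACTA2, LUM and THY1 passed the filter and were called higher. LUM had 1 and 0 counts without treatment and 7 and 2 with it, and an adjusted p of 0.178 without untreated library 2 and of 0.369 without treated library 1. The summed level of the fibroblast markers went from 11.9 and 10.9 CPM to 60.8 and 57.4 CPM, nearly all of it ACTA2, while PDGFRA, DCN and COL3A1 had 0 to 2 counts. The summed immune markers went from 6.59 and 5.53 CPM to 9.57 and 10.3 CPM, and the endothelial ones from 1.84 and 1.87 CPM to 1.15 and 1.42 CPM. Of 10 immune markers 2 were tested, CD14 and ITGAM, and both were called higher (log2 fold changes 0.58 and 0.975). Both calls depended on untreated library 2, without which the log2 fold changes were 0.44 and 0.65. The call of ITGAM also depended on each treated library. Of 8 endothelial markers only PECAM1 was tested, and it was called lower (log2 fold change -2.15). The part of other cells in these results was not tested.

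SUM159 cells received the same dose for the same time, so the response of each line could be compared by the interaction of line and treatment in a model of all 14 libraries. Of 17279 genes tested, 4466 had a higher response in SUM159 than in A549 (25.8%) and 4695 a lower one (27.2%). Of the 42 replication genes, 41 had a lower response in SUM159 and 0 a higher one, with a median log2 fold change of -0.97 in SUM159 beside 0.76 in A549. CDC6 had a log2 fold change of 1.60 in A549 and -0.88 in SUM159, a difference of -2.47 (SE 0.11, adjusted p = 1.38e-12). The difference for CLSPN was -2.91 (SE 0.12, adjusted p = 3.88e-13). The 1 replication gene whose responses were not called different was RPA3 (difference 0.17, SE 0.13).

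Mitosis genes were lower with the compound in both lines, with a median of -1.41 in SUM159, and 38 of 51 had a lower response there and 4 a higher one. For KIF20A the responses were -2.67 and -2.94 and were not called different (difference -0.27, SE 0.14, adjusted p = 0.133), whereas PLK1 fell further in SUM159 (difference -1.51, SE 0.09, adjusted p = 4.65e-11). Of the 39 p53 targets, 22 had a lower response in SUM159 and 8 a higher one. Their median log2 fold change was 0.50 in SUM159 beside 1.37 in A549. GDF15 was among those that rose further in SUM159 (5.04, beside 0.97 in A549). MDM2, with a log2 fold change of 1.66 in A549, was at 77.5 and 75.7 CPM in untreated and 78.1 and 75.9 CPM in treated SUM159 cells. The difference was -1.65 (SE 0.09, adjusted p = 8.96e-12). CDKN1A was higher in treated cells of both lines, 3.63 in A549 and 1.01 in SUM159.

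**Figure D5:**
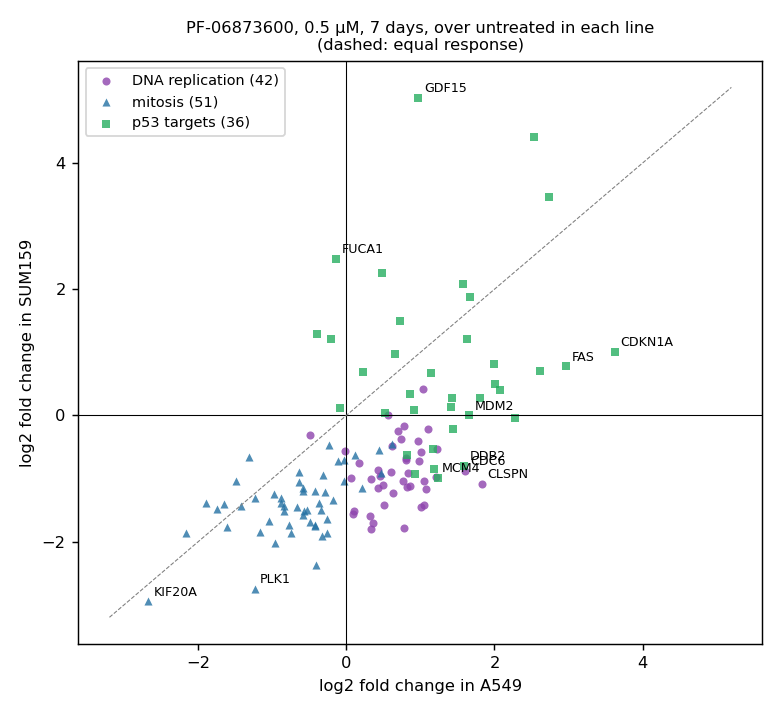
Each point is a gene, with its log2 fold change on PF-06873600 in A549 on the x axis and in SUM159 on the y axis, each over the untreated cells of that line, and the dashed line marks equal responses. Replication genes lie mostly to the right of 0 in A549 and below 0 in SUM159, mitosis genes lie mostly below 0 in both, and 3 p53 targets with a standard error of the difference of 1 or more are not drawn.

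Palbociclib at 2 μM for 10 days was compared with the same untreated A549 libraries, so the values are set side by side only, at a different dose and time. CDKN1A had a log2 fold change of 3.63 with PF-06873600 and of 0.41 with palbociclib. The p53 target list had medians of 1.37 and 0.07, the replication list 0.76 and 0.26, and the mitosis list -0.58 and -0.15. Other lists rose with both compounds. Medians were 1.17 and 1.01 for chemokines and cytokines, 1.35 and 0.675 for the SASP list of Hernandez, and 0.70 and 0.43 for interferon-stimulated genes. RRM2 had 1.88 and -0.38.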

How the data were processed

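The authors sequenced polyadenylated RNA and deposited 1 table of raw read counts per library, with 60683 Ensembl gene identifiers and 9 summary lines that were left out. Reads were aligned to GRCh38. The submitters' processing notes name HISAT2 2.2.1 and HTSeq, with no role given, and the annotation release is not given in the sources used here. Symbols and positions came from GENCODE 44 (60370 identifiers matched). No read carried a molecular identifier.

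Counts were tested with edgeR 4.0.16 in R 4.3.3 (glmQLFit and glmQLFTest, filterByExpr, total-count scaling as in the study). All 10 A549 libraries of 5 groups shared 1 estimate of the spread. Group was the only term. DESeq2 1.42.0 was an alternative. Counts were also simulated with 200 genes changed and the same spread for every gene and group. On these, 82.5% of changed genes were called, with 4.62% of calls false (15266 genes). For the difference between lines 71% were called, with 4.05% false (16177 genes). In the data 4491 genes were called higher and 4392 lower, and the untreated duplicates stood further apart than the treated ones. The simulated rates hold for the simulated settings only.

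The comparison, the gene lists and the tests were chosen with earlier results of these data known. Genes were named where adjusted p was under 0.05, the groups did not overlap and the higher group reached 10 CPM: the 4 largest changes per list and the 15 highest and 15 lowest overall. Added to these were CDK targets and markers, 12 genes for the 2 lines and members of lists with 5 or fewer calls in 1 direction. DLGAP5, TIPIN, PCNA, TOP2A, PLK1, FOXM1, CDK1, IL6, the genes listed at or near 0 and those not called were named outside this rule, after their values were seen. Lists were described by counts and medians, with no set test. Some genes that the rule admits are not reported here.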

Additional observations from a re-analysis of the deposited data

Results flagged for a closer look

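The interaction of cell line and treatment (edgeR's quasi-likelihood test over 17279 genes) was called for all 12 genes chosen for this comparison of PF-06873600 in SUM159 and A549. Over all genes tested, 25.8% had a higher response in SUM159 and 27.2% a lower one. The 12 genes were chosen with earlier results of these data known. Differences are given as the log2 fold change in SUM159 minus that in A549. The response was lower in SUM159 for MKI67 (-1.06), CCNB1 (-1.19), MCM2 (-1.95), E2F1 (-1.22), LMNB1 (-1.76), CDKN1A (-2.62) and MDM2 (-1.65). It was higher in SUM159 for GDF15 (4.06), CCL2 (5.73), CXCL8 (0.71), IGFBP3 (2.94) and GLB1 (1.70). CCL2 had 0 counts in both untreated SUM159 libraries, so its fitted difference depends on the prior count and is no bound. MCM2 and E2F1 rose in A549 (0.82 and 0.82) and had log2 fold changes of -1.13 and -0.40 in SUM159. GLB1 had -0.23 in A549 and 1.47 in SUM159.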

How the results depend on the processing

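With PF-06873600, 4491 genes were called higher and 4392 lower in A549. TMM factors gave 4550 and 4305, DESeq2 3858 and 3330, no filter on low counts 4631 and 4523, a mean of at least 50 counts 3679 and 3767, and a fit of only the 4 libraries 4038 and 3898. Leaving out 1 library at a time gave 3683 to 4531 higher and 3444 to 4326 lower. TMM moved the median of all genes by 0.008 and the share of higher calls from 50.6% to 51.4%. The 9161 genes called different between the lines ranged from 7939 to 9154 over the alternatives. Of 2071 refits of the 208 named genes, 68 lost the call and 0 reversed. Medians of short lists were least stable: the CDK inhibitor median of -0.21 ranged from -1.07 to 0.016 when 1 library was left out, the latter without untreated replicate 2, and the endothelial marker median of -2.15 became 0.53 with no filter on low counts, when more members with few reads entered.

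Replicate numbers did not show paired libraries, with a correlation of deviations of 0.078 for A549 and of 0.069 for SUM159. A replicate block gave 4444 genes higher, 4339 lower and 8973 different between the lines. Spread was larger between untreated libraries, and the common biological coefficient of variation fell from 0.0555 to 0.0384 without untreated library 1. Genes at a few counts cannot be resolved at this depth.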
